A study of Mus musculus with 12 samples.

Results

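The genes described here encode the machinery that loads peptides onto MHC class II: the surface chains H2-Aa, H2-Ab1 and H2-Eb1, the invariant chain Cd74, the transactivator Ciita, the loading factors H2-DMa, H2-DMb1 and H2-DMb2, their inhibitor H2-Oa, and the protease cathepsin S (Ctss). These 10 genes were chosen by name, with earlier results of these data known. Each was read from the probe set that carried its symbol alone and had the highest mean over the 12 arrays. A value was obtained for 9 of the 10, out of 22180 genes with such a probe set, and all 9 were among the 16635 genes tested. For Cd74, the probe set in the annotation also carried the symbol of a microRNA gene, Mir5107, so no value is given for Cd74.

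The samples were colorectal tumors of mice treated with azoxymethane and dextran sulfate sodium (AOM/DSS), a model in which a carcinogen is combined with chemical inflammation of the colon. All 4 groups carried this treatment. Stat3wt mice were wild type, and Stat3dm mice carried a conditional deletion of STAT3, a transcription factor activated by cytokine receptors, among them those of the interleukin-6 and interleukin-10 families, in myeloid cells. Within each genotype, tumor areas and stroma areas were separated by laser capture, which gave Stat3wt tumor, Stat3wt stroma, Stat3dm tumor and Stat3dm stroma with 3 samples each. Each sample held 2 tumors of 1 mouse as a pool, from fixed and paraffin-embedded material. The driver of the deletion, the strain and age of the mice and the choice of areas: none of these is given in the sources used here. The series set out to find changes in stroma that depend on STAT3 in the myeloid compartment.

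MHC class II molecules are heterodimers of an alpha and a beta chain that display peptides from endocytosed proteins to CD4 T cells. In the endoplasmic reticulum the dimer binds the invariant chain. In the endosome cathepsin S trims the invariant chain to a short fragment called CLIP, and H2-DM, a dimer of H2-DMa with an H2-DMb chain, exchanges CLIP for peptide, while H2-O restrains H2-DM, mainly in B cells. Constitutive class II expression belongs to dendritic cells, macrophages and B cells, and interferon-gamma can induce it in other cells, including intestinal epithelium, by way of CIITA. CIITA does not bind DNA itself and docks on factors bound to conserved promoter elements called the X box and the Y box.

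Promoter windows are shown because the members share a regulator whose level was itself measured. RefSeq windows of GRCm38.p6, from 250 bases before to 50 bases after a start site, were at hand for 7 of the 10 genes in 8 windows, with no entry for H2-Ab1, Ciita or Cd74. Among the 10 genes alone, those on chromosome 17 have the RefSeq order H2-Oa, H2-DMa, H2-DMb2, H2-DMb1, H2-Ab1, H2-Aa and H2-Eb1. Genes between them were not examined. Ciita lies on chromosome 16 and Ctss on chromosome 3. The stretches below lie upstream of the start site and run 5′ to 3′ on the strand of the gene. Capitals mark the X box core, searched as AACNNATG, and the Y box core, searched as GATTGG, both on either strand. These are short cores that were chosen after the windows had been seen. A window without a match was not shown to lack the X box or the Y box.
H2-Eb1, chr17:34305747-34305826, plus strand: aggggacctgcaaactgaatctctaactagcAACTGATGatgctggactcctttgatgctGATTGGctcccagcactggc
H2-DMb1, chr17:34153069-34153148, plus strand: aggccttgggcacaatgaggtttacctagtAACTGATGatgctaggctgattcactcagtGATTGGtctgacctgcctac
H2-DMb2, chr17:34145098-34145177, plus strand: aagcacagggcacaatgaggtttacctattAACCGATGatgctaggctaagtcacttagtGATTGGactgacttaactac
H2-Aa, chr17:34287853-34287932, minus strand: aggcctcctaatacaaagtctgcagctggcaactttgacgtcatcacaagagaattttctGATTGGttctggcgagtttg
H2-Oa, chr17:34092275-34092354, plus strand: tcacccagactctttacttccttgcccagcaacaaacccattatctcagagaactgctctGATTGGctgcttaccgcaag

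On the strand of the gene the Y box core began 44 bases before the start site in H2-Oa, 49 in H2-Aa, 60 in H2-Eb1, 62 in H2-DMb1 and 91 in H2-DMb2, and farther upstream, at 199, in H2-DMa. It was present in 6 of the 8 member windows and in 16.1% of all 32851 windows of the same length. The X box core was present in 4 of the 8 member windows and in 8.86% of all windows, and in Ctss it stood without a Y box core, 207 bases before the start site. An X box core followed by a Y box core on the strand of the gene, within 40 bases, occurred in 3 member windows and in 25 windows in all, which is 0.0761%. The spacing between the cores was 21 bases in H2-Eb1 and 22 bases in both H2-DMb1 and H2-DMb2. The interferon-stimulated response element, searched as GAAA, any 2 bases and GAAA on both strands, was found in 1 member window, that of Ctss, and in 3.44% of all windows. The gamma-activated site, searched as TTCNNNGAA on both strands, was found in 1 member window, that of H2-DMb2, and in 8.3% of all windows. H2-DMb1 and H2-DMb2 therefore carried the same pair of cores at the same spacing, and their measured levels are given separately below.

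Levels are log2 signals, so a difference of 1 is a doubling, and levels are compared between groups for the same gene only. Array medians lay between 4.20 and 4.43, and replicates of a group correlated between 0.881 and 0.967 over all genes tested. Stat3 itself averaged the same in Stat3dm and Stat3wt stroma (difference 0.00 ± 0.32 SE) and was -0.27 ± 0.32 SE in tumor, with adjusted p = 0.999 and 0.858 in the limma fit. By the labels the deletion was in myeloid cells, and the captured areas were not sorted by cell type. Epithelial markers were below 0 in stroma minus tumor for 10 of 10 genes in each genotype, and fibroblast markers were above 0 for 7 of 8. Sample 1 of Stat3dm stroma stood apart from the other 2 of its group. Its epithelial markers averaged 0.24 above their mean over all arrays, within the range of the tumor samples (0.07 to 0.85), against -1.16 and -0.37 in samples 2 and 3. Where a count of members that did not overlap, a call or a sign changed without it, the change is given too. For a median over the members, the value without it or the range over single arrays left out is given. Counts at an unadjusted p were not repeated without it. Differences in these areas can come from fewer cells of a type or from less RNA per cell, which cannot be told apart in bulk samples.

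H2-Ab1, the beta chain of I-A, read 8.77, 9.13 and 9.59 in the samples of Stat3wt tumor and 10.10, 10.17 and 10.19 in Stat3dm tumor. In stroma it read 8.93, 9.91 and 10.56 in Stat3wt and 10.82, 11.21 and 11.02 in Stat3dm. All 3 Stat3dm samples lay above all 3 Stat3wt samples in both tissues. The Stat3dm tumor samples lay close together (SD 0.05, n = 3), and the Stat3wt stroma samples were spread widely (SD 0.82, n = 3).

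H2-Aa, the alpha chain of I-A, read 7.11, 7.68 and 8.18 in Stat3wt tumor and 8.25, 8.56 and 8.68 in Stat3dm tumor. In stroma its values were 6.83, 8.42 and 9.10 in Stat3wt and 9.02, 9.87 and 9.55 in Stat3dm. The genotypes did not overlap in tumor and overlapped in stroma, where sample 3 of Stat3wt lay just above sample 1 of Stat3dm.

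H2-Eb1, the beta chain of I-E, read 6.37, 6.57 and 7.02 in Stat3wt tumor and 7.22, 7.61 and 7.82 in Stat3dm tumor. Its stroma values were 6.80, 7.71 and 8.22 in Stat3wt and 7.99, 8.81 and 8.52 in Stat3dm. As for H2-Aa, the genotypes were apart in tumor and overlapped in stroma by 1 sample of each group. The 3 chains ordered the samples alike, with sample 1 lowest and sample 3 highest in Stat3wt tumor, Stat3wt stroma and Stat3dm tumor. In Stat3dm stroma sample 1 was lowest and sample 2 highest. The SD of all signals on an array also rose with sample number in Stat3wt stroma (1.60 to 1.76), Stat3dm tumor (1.65 to 1.85) and Stat3dm stroma (1.65 to 1.72). In Stat3wt tumor that SD was 1.79, 1.75 and 1.91. A link between array SD and the chains was not tested.

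**Figure D1:**
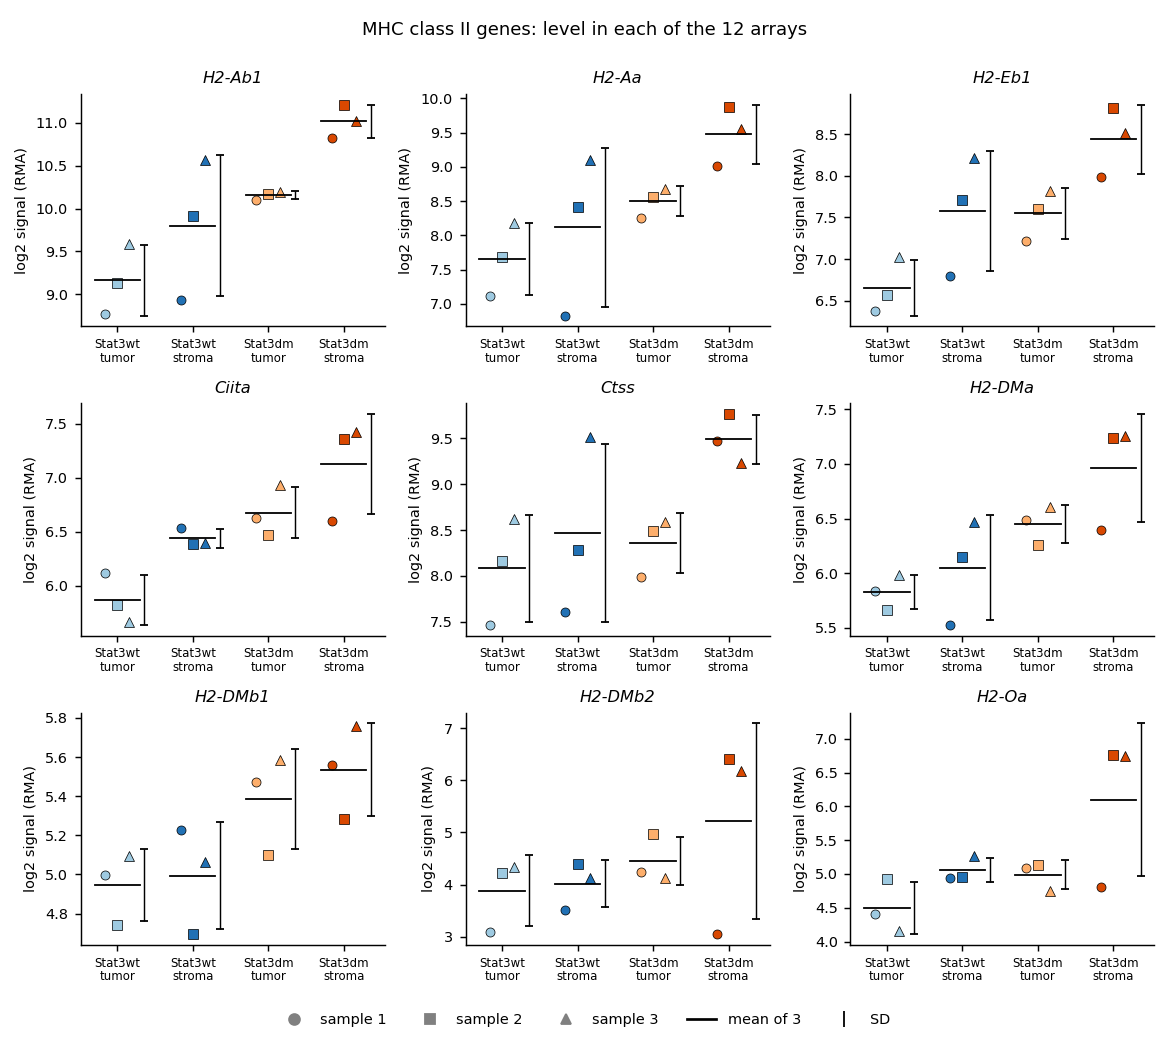
Log2 signal of the 9 measured members in each of the 12 samples, by group; points are samples, marked by their number, with the group mean as a horizontal line and the SD as a bar. Stat3dm stroma has the highest mean in every panel, and its sample 1 falls far below samples 2 and 3 for H2-DMb2 (3.04 against 6.42 and 6.18).

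Ciita, the transactivator, read 6.12, 5.82 and 5.66 in Stat3wt tumor, 6.63, 6.47 and 6.93 in Stat3dm tumor, 6.54, 6.39 and 6.39 in Stat3wt stroma and 6.60, 7.36 and 7.43 in Stat3dm stroma. The genotypes did not overlap in either tissue, although sample 1 of Stat3dm stroma exceeded the highest Stat3wt stroma sample by little. Its Stat3wt stroma samples lay close together (SD 0.09, n = 3), where those of H2-Aa were spread widely (SD 1.16, n = 3).

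Ctss, the protease that trims the invariant chain, read 7.46, 8.16 and 8.62 in Stat3wt tumor and 7.98, 8.49 and 8.59 in Stat3dm tumor. In stroma it read 7.60, 8.29 and 9.51 in Stat3wt and 9.47, 9.77 and 9.23 in Stat3dm. The genotypes overlapped in both tissues, and in tumor the highest value of all 6 samples belonged to Stat3wt.

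H2-DMa, the alpha chain of the loading factor, read 5.84, 5.66 and 5.98 in Stat3wt tumor and 6.49, 6.26 and 6.61 in Stat3dm tumor. Its stroma values were 5.53, 6.14 and 6.47 in Stat3wt and 6.39, 7.24 and 7.26 in Stat3dm. The genotypes were apart in tumor, and in stroma sample 1 of Stat3dm fell inside the Stat3wt range.

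H2-DMb1, a beta chain of the same dimer, read 5.0, 4.74 and 5.10 in Stat3wt tumor and 5.47, 5.10 and 5.58 in Stat3dm tumor. In stroma it read 5.23, 4.69 and 5.06 in Stat3wt and 5.56, 5.29 and 5.76 in Stat3dm. The groups just failed to overlap in both tissues, and in tumor the highest Stat3wt and the lowest Stat3dm sample both read 5.10. Stroma and tumor of the same genotype overlapped throughout.

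H2-DMb2, the other beta chain, read 3.09, 4.22 and 4.33 in Stat3wt tumor, 4.25, 4.97 and 4.13 in Stat3dm tumor, 3.52, 4.40 and 4.13 in Stat3wt stroma and 3.04, 6.42 and 6.18 in Stat3dm stroma. Samples 2 and 3 of Stat3dm stroma were the highest of the 12 and sample 1 was the lowest of the 12. Several values lie near the level of 3.65 below which the dimmest 25% of genes were left out.

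H2-Oa, the alpha chain of the inhibitor H2-O, read 4.41, 4.92 and 4.16 in Stat3wt tumor and 5.09, 5.14 and 4.74 in Stat3dm tumor. In stroma it read 4.94, 4.96 and 5.27 in Stat3wt and 4.80, 6.76 and 6.74 in Stat3dm. Samples 2 and 3 of Stat3dm stroma were again the highest of all, and sample 1 of that group lay below every Stat3wt stroma sample.

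Ordered by group mean, 6 of the 9 members ran from Stat3wt tumor through Stat3wt stroma and Stat3dm tumor to Stat3dm stroma. The other 3, H2-Eb1, H2-Oa and Ctss, had Stat3dm tumor below Stat3wt stroma. The extremes were the same in all 9, with Stat3wt tumor lowest and Stat3dm stroma highest. The middle neighbours, Stat3wt stroma and Stat3dm tumor, overlapped in all 9, so their order was not resolved.

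The first comparison asked how the machinery differed between Stat3dm and Stat3wt in stroma. All 9 members were higher in Stat3dm by their group means, with a median log2 difference of 1.02, from 0.54 for H2-DMb1 to 1.36 for H2-Aa, beside a median of -0.02 over all genes tested and 47.2% of all genes above 0. In limma none passed an adjusted p of 0.05, as none of the 16635 genes did (0% called), the smallest adjusted p of any gene being 0.0637. At an unadjusted p under 0.05, 8 of 9 members were higher, against 3.14% of all genes. The largest differences among the chains were 1.36 ± 0.45 SE for H2-Aa, which is 2.57-fold (95% interval 0.41 to 2.32 on the log2 scale, adjusted p = 0.666, n = 3 per group by limma), and 1.22 ± 0.33 SE for H2-Ab1, which is 2.32-fold (0.52 to 1.92, adjusted p = 0.497 by limma). H2-DMa differed by 0.91 ± 0.27 SE and Ciita by 0.69 ± 0.24 SE. Ctss differed by 1.02 ± 0.40 SE. H2-DMb2 had the widest interval, -0.21 to 2.60 around 1.20, and was the member above an unadjusted p of 0.05.

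Groups that do not overlap, all 3 Stat3dm stroma samples above all 3 Stat3wt stroma samples, were found for 3 of the 9 members (H2-Ab1, Ciita and H2-DMb1), against 5.13% of all genes. Without sample 1 of Stat3dm stroma the number was 8, against 10.1% of all genes, and without sample 3 of Stat3wt stroma it was 7, against 12.5%. The median difference over the members was 1.20 without sample 1 of Stat3dm stroma. The differences of single genes moved with these samples too. H2-DMb2 differed by 2.28 and H2-Oa by 1.69 without sample 1 of Stat3dm stroma, in place of 1.20 and 1.04, while H2-Aa ranged from 0.72 to 1.86 as single arrays were left out, the lowest being without sample 1 of Stat3wt stroma. The 9 differences stayed above 0 on leaving out any single array.

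The same comparison in tumor again put all 9 members higher in Stat3dm, by a median of 0.62 beside -0.01 over all genes, of which 48.7% lay above 0. None of the members passed an adjusted p of 0.05 in limma, where 3 genes did (0.018%), and 4 of 9 had an unadjusted p under 0.05 and were higher, against 1.76% of all genes. The differences were 0.99 ± 0.33 SE for H2-Ab1 (1.99-fold, adjusted p = 0.534), 0.90 ± 0.33 SE for H2-Eb1 (1.86-fold, adjusted p = 0.652) and 0.81 ± 0.24 SE for Ciita (1.75-fold, adjusted p = 0.423). H2-Aa differed by 0.84 with an interval from -0.11 to 1.79. Ctss differed least, by 0.27 with an interval from -0.58 to 1.13, and became -0.036 without sample 1 of Stat3wt tumor. The groups did not overlap for 6 of 9 members, the 3 surface chains, Ciita, H2-DMa and H2-DMb1, against 4.05% of all genes, and this count was 6 or 7 on leaving out any single array of these groups, against 6.54% to 15.3% of all genes.

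**Figure D2:**
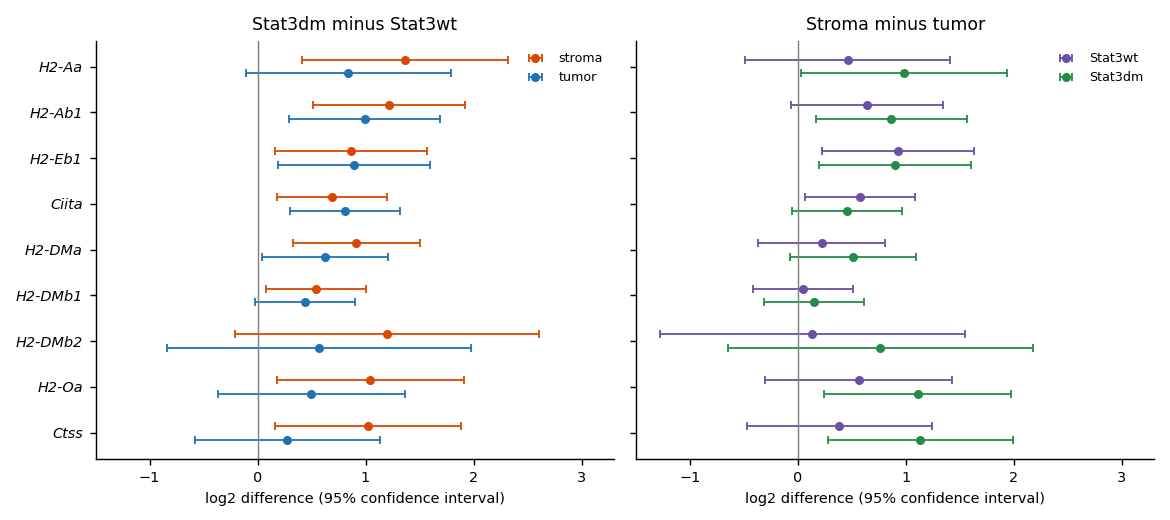
Log2 differences of the 9 members with 95% intervals from limma, for Stat3dm minus Stat3wt in stroma and tumor and for stroma minus tumor in each genotype. All points lie above 0; in stroma the genotype difference is largest for H2-Aa (1.36) and in tumor for H2-Ab1 (0.99).

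Averaged over both tissues, the genotype difference had a median of 0.77 over the members, and 8 of 9 had an unadjusted p under 0.05 and were higher, against 3.52% of all genes. None of the 9 passed, where 47 genes did (0.283%). The smallest adjusted p-values in limma were 0.0746 for H2-Ab1 (1.10 ± 0.23 SE) and 0.0898 for Ciita (0.75 ± 0.17 SE), followed by 0.123 for H2-DMa and 0.146 for H2-Eb1. Without sample 1 of Stat3dm stroma Ciita (adjusted p = 0.0364) and H2-Oa (adjusted p = 0.0235) passed in limma, and the median over the members was 0.99. Without sample 3 of Stat3wt stroma H2-Ab1 passed (adjusted p = 0.0244). With sample number as a block 5 of 9 passed, and with genotype and number as a random block 0 did. This average treats tumor and stroma samples as separate, and the labels do not say whether a stroma sample and a tumor sample of the same number came from the same mouse. The difference between the genotype differences of the tissues, the interaction, was above 0 for 7 of 9 members, against 52.5% of all genes, with a median of 0.29 beside 0.02 over all genes. The median ran from 0.030, without sample 1 of Stat3wt stroma, to 0.60, without sample 3 of that group, and was 0.58 without sample 1 of Stat3dm stroma. Without sample 1 of Stat3dm stroma the 2 interactions below 0 with all arrays, those of H2-Eb1 and Ciita, turned to 0.20 and 0.15. Leaving out a single array turned the sign for 5 members, H2-Aa, H2-Ab1, H2-Eb1, Ciita and H2-DMb1, so the direction of the interaction was not settled. None passed (0% of all genes did) and 0 of 9 had an unadjusted p under 0.05 in either direction, where 1.33% of all genes were higher at that level. The interval of the interaction ran from -0.77 to 1.21 for H2-Ab1 and from -0.46 to 1.96 for Ctss, so a difference between tissues as large as the genotype differences themselves was not resolved with 3 samples per group.

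The second comparison set stroma against tumor within a genotype. In Stat3wt all 9 members were above 0 as deposited (46.7% of all genes were), by a median of 0.46 beside -0.04 over all genes, although H2-DMb1, at 0.05, turned to -0.049 when each array was centred on its median. Leaving out a single array turned the sign for 3 further members. H2-Aa was -0.032 and Ctss -0.14 without sample 3 of Stat3wt stroma, and H2-DMb2 was -0.26 without sample 1 of Stat3wt tumor and -0.058 without sample 2 of Stat3wt stroma. None passed in limma (0% of genes did). An unadjusted p under 0.05 was reached by 2 of 9, against 5.12% of all genes. The largest differences were 0.92 ± 0.33 SE for H2-Eb1, 0.64 ± 0.33 SE for H2-Ab1 and 0.57 ± 0.24 SE for Ciita. The groups did not overlap for 2 of 9, Ciita and H2-Oa, against 8.88% of all genes. Without sample 1 of Stat3wt stroma 6 of 9 did not overlap, against 12.5% of all genes, and without sample 3 of that group the median over the members was 0.079.

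In Stat3dm all 9 members were again higher in stroma, with a median of 0.86 beside -0.03 over all genes, of which 45.5% lay above 0. None passed in limma (0% of genes did), and 5 of 9 had an unadjusted p under 0.05, against 4.08% of all genes. Ctss differed by 1.13 ± 0.40 SE (adjusted p = 0.377) and H2-Oa by 1.11 ± 0.40 SE (adjusted p = 0.388). H2-Aa differed by 0.98 ± 0.45 SE, H2-Eb1 by 0.89 ± 0.33 SE and H2-Ab1 by 0.86 ± 0.33 SE. The groups did not overlap for the 3 surface chains and Ctss, 4 of 9, against 6.57% of all genes, and for 8 of 9 without sample 1 of Stat3dm stroma, against 12.2%. Tumor and stroma samples of the same number in Stat3dm correlated at 0.123, 0.157 and 0.298 for samples 1, 2 and 3, over all genes, in their deviations from the group mean. Samples of unequal number ranged from -0.293 to 0.125, so a pairing was not established. With genotype and number as a fixed block Ctss passed in limma (1.13, adjusted p = 0.0397). Without sample 1 of Stat3dm stroma H2-Oa passed in limma (1.76, adjusted p = 0.0316), and the median over the members was 1.12.

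Averaged over both genotypes, stroma exceeded tumor by a median of 0.72, and 6 of 9 members had an unadjusted p under 0.05 and were higher, against 7.11% of all genes. None of the 9 passed, where 425 genes did (2.55%). H2-Eb1 came closest in limma with 0.91 ± 0.23 SE (adjusted p = 0.054), then H2-Ab1 with 0.75 ± 0.23 SE (adjusted p = 0.0884) and Ciita with 0.51 ± 0.17 SE (adjusted p = 0.103). With number as a block 5 of 9 passed, with genotype and number as a random block 3 (H2-Eb1, H2-Ab1 and Ciita), and as a fixed block 6, where H2-Eb1 had an adjusted p of 0.00624 in limma. Without sample 1 of either stroma group 3 of 9 passed. The median over the members ran from 0.50 to 0.86 as single arrays were left out. H2-DMb1 showed the smallest tissue difference, 0.10 with an interval from -0.23 to 0.43, beside a genotype difference of 0.49 with an interval from 0.16 to 0.82.

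In Stat3dm stroma, samples 2 and 3 were the 2 highest of all 12 samples and sample 1 was clearly lower for H2-DMb2, H2-Oa, Ciita and H2-DMa, with the widest spread for H2-DMb2 (SD 1.88) and H2-Oa (SD 1.13). Class II genes outside the members were read beside them. H2-Ob, the beta chain of H2-O, read 4.19, 5.34 and 5.44 in Stat3dm stroma against 4.49, 4.57 and 4.38 in Stat3wt stroma. H2-Eb2, a further class II beta chain, read 3.66, 5.50 and 5.60 against 3.87, 4.40 and 3.80. For both genes samples 2 and 3 of Stat3dm stroma were the highest of all 12 samples and sample 1 lay below the Stat3wt stroma range.

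Of the B cell markers, the signal chains of the B cell receptor, chosen after their values were seen, also had samples 2 and 3 highest. Cd79a read 4.99, 6.79 and 6.91 in Stat3dm stroma, against 4.24, 4.29 and 4.45 in Stat3wt stroma, and Cd79b read 5.34, 6.77 and 6.40 against 4.60, 5.41 and 5.07. For Cd79a all 3 Stat3dm stroma samples were above Stat3wt stroma, by 1.91 ± 0.42 SE (adjusted p = 0.28 in limma). The B cell markers tested numbered 5, and all 5 were above 0 in stroma (median 0.73, and 0.83 without sample 1 of Stat3dm stroma), with 0 of 5 passing in limma and 4 at an unadjusted p under 0.05. The others did not all share the pattern. Blk read 5.27, 5.86 and 5.30 in Stat3dm stroma, and Cr2 read 4.46, 4.79 and 4.24, with sample 3 lowest. Pax5, which encodes a B cell transcription factor, differed by only 0.12 ± 0.28 SE. The summed level of the list, as a mean log2 value per sample, ran from 5.16 to 6.10 in Stat3dm stroma and from 4.68 to 4.87 in Stat3wt stroma. Ms4a1 and Fcer2a were among the dim genes. Whether B cells had a part in the levels of H2-DMb2 and H2-Oa was not tested.

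**Figure D3:**
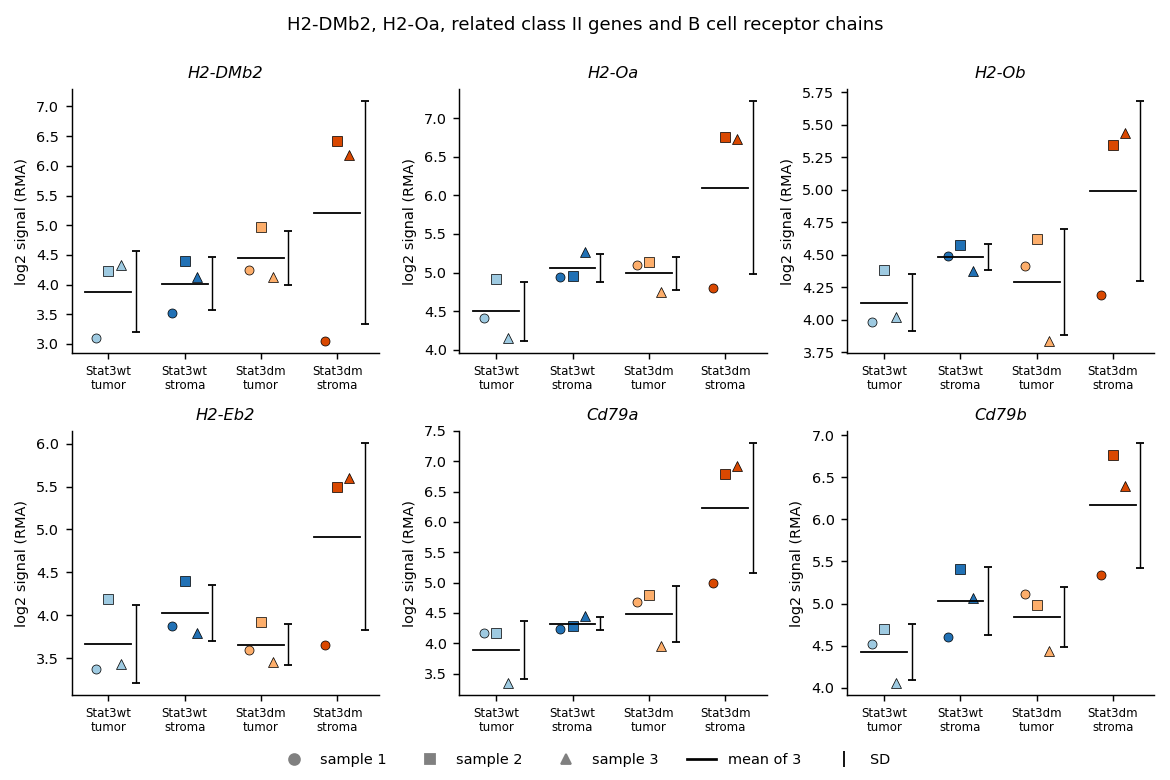
Log2 signal of H2-DMb2, H2-Oa, H2-Ob, H2-Eb2, Cd79a and Cd79b in the 12 samples, with the group mean as a line and the SD as a bar. In each panel samples 2 and 3 of Stat3dm stroma are the 2 highest of all samples; for Cd79a they read 6.79 and 6.91, and sample 1 read 4.99.

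The other genes of the pathway are described from lists drawn from general knowledge. The factors that bind class II promoters or induce Ciita (11 tested) had a median genotype difference of 0.13 in stroma, with 8 of 11 above 0, and of -0.08 in tumor, with 5 of 11 above 0. None passed in either tissue. Rfx5, which binds the X box, differed by 0.23 ± 0.22 SE in stroma and -0.25 ± 0.22 SE in tumor, and its groups overlapped. Irf1, an interferon-induced factor that acts on the Ciita promoter, read 7.63, 7.08 and 7.02 in Stat3dm stroma and 6.19, 6.29 and 6.53 in Stat3wt stroma, a difference of 0.91 ± 0.23 SE (adjusted p = 0.42 in limma). Spi1, the myeloid factor PU.1, rose in stroma over tumor on average (0.66 ± 0.15 SE, adjusted p = 0.0363).

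Genes of the interferon-gamma axis were above 0 in Stat3dm stroma for 9 of 10 tested (median 0.46) and in Stat3dm tumor for 7 of 10 (median 0.27). Cxcl9, an interferon-gamma-induced chemokine, read 8.95, 8.36 and 8.70 in Stat3dm stroma against 7.75, 6.78 and 6.24 in Stat3wt stroma. Averaged over both tissues it rose by 1.34 ± 0.26 SE (adjusted p = 0.0443 in limma), the 1 gene of the 10 that passed. Ifng itself read 5.07, 3.84 and 4.03 in Stat3dm stroma and 3.83, 3.82 and 3.71 in Stat3wt stroma, close to the level of the dimmest genes. Its high value was in sample 1, the sample in which H2-DMb2 and H2-Oa were low.

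MHC class I presentation, which displays cytosolic peptides to CD8 T cells, was higher in Stat3dm for 9 of 9 genes in stroma (median 0.71) and for 9 of 9 in tumor (median 0.51). The groups did not overlap for 9 of 9 in stroma and for 8 of 9 in tumor, against the 5.13% and 4.05% of all genes given above. Psmb9, an immunoproteasome subunit, read 7.49, 7.48 and 7.68 in Stat3dm stroma against 6.70, 6.79 and 6.63 in Stat3wt stroma, and averaged over both tissues it rose by 0.79 ± 0.13 SE (adjusted p = 0.0254 in limma). H2-K1, a class I heavy chain, differed by 0.71 ± 0.20 SE in stroma, and Nlrc5, the class I counterpart of Ciita, by 0.77 ± 0.24 SE. Unlike the class II members, the class I genes had no common direction between stroma and tumor, with 4 of 9 above 0 in Stat3wt and 6 of 9 in Stat3dm. This contrast between the lists was not tested.

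The endosomal processing list held proteases, a reductase (Ifi30), protease inhibitors (Cst3 and Cst7) and lysosomal membrane proteins (Lamp1 and Lamp2). Its genes were above 0 in Stat3dm for 11 of 14 in stroma (median 0.25) and for 5 of 14 in tumor (median -0.30), and none passed. Ifi30, a thiol reductase of the endosome, differed by 0.67 ± 0.29 SE in stroma. Sppl2a, which cleaves the remaining stub of the invariant chain, fell in stroma relative to tumor on average (-0.76 ± 0.18 SE, adjusted p = 0.0411 in limma), in the direction opposite to Ctss. Of 4 genes that control class II turnover at the surface, 3 were above 0 in Stat3dm stroma. Marchf1, a ubiquitin ligase that removes class II from the surface, differed by 0.34 ± 0.18 SE and Cd83, which opposes it, by 0.08 ± 0.26 SE. Il10ra, a receptor chain of interleukin-10, had the largest genotype difference of the 4 in stroma, 0.72, and its genotypes overlapped there. It rose in stroma over tumor on average by 1.10 ± 0.18 SE (adjusted p = 0.0216 in limma).

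On the side of the responding cells, 6 of 7 genes listed as CD4 T cell partners were above 0 in Stat3dm stroma (median 0.54). In Stat3dm tumor 7 of 7 were (median 0.23), and none passed. Cd3d, Cd3e, Cd3g and Lag3 in this list are not specific to CD4 T cells. Cd4, the coreceptor that binds class II, differed by 0.17 ± 0.22 SE in stroma and 0.48 ± 0.22 SE in tumor. Lag3, an inhibitory receptor for class II, differed by -0.09 ± 0.26 SE and 0.04 ± 0.26 SE. Among costimulators of antigen presenting cells, 5 of 6 were above 0 in Stat3dm stroma (median 0.45) and 3 of 6 in tumor (median 0.03). Cd274, which encodes PD-L1, read 7.59, 6.11 and 6.06 in Stat3dm stroma, with sample 1 highest, and 5.79, 5.21 and 5.38 in Stat3wt stroma. Its difference was 1.13, and 0.63 without that sample.

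Pan-leukocyte markers were above 0 in Stat3dm stroma for 6 of 6 (median 1.03, not overlapping for 5 of 6, against 5.13% of all genes), with 0 of 6 passing in limma and 6 of 6 at an unadjusted p under 0.05, and their mean level ran from 7.50 to 7.86 there against 6.11 to 7.05 in Stat3wt stroma. In tumor the same 6 genes had a median of 0.14, overlapped between genotypes for 6 of 6, and ran from 5.95 to 6.22 in Stat3dm and from 5.74 to 6.24 in Stat3wt. The corresponding count for the class II members in tumor is given above, and the difference between the lists was not tested. Cd53, a leukocyte tetraspanin, had the smallest adjusted p of these markers in stroma (1.72 ± 0.28 SE, adjusted p = 0.0956 in limma). Averaged over both genotypes, 6 of 6 pan-leukocyte markers rose in stroma over tumor.

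Macrophage markers (11 tested) had a median genotype difference of 0.34 in stroma, with 10 of 11 above 0, and of -0.14 in tumor, with 3 of 11 above 0. Their mean level ran from 6.60 to 7.01 in Stat3dm stroma, inside the 5.67 to 7.26 of Stat3wt stroma. Cd68 and Adgre1 differed by 0.48 ± 0.36 SE and 0.34 ± 0.34 SE in stroma and by -0.46 ± 0.36 SE and -0.26 ± 0.34 SE in tumor. Dendritic cell markers had a median of 0.06 in both tissues, with 5 of 8 above 0 in each. T cell markers, 4 of which are also in the list of CD4 T cell partners, were above 0 for 7 of 7 in stroma (median 0.50) and for 7 of 7 in tumor (median 0.41). Epithelial markers had medians of 0.12 in stroma and 0.07 in tumor, and -0.26 in stroma without sample 1 of Stat3dm. The part of any of these cell types in the levels of the class II members was not tested.

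**Figure D4:**
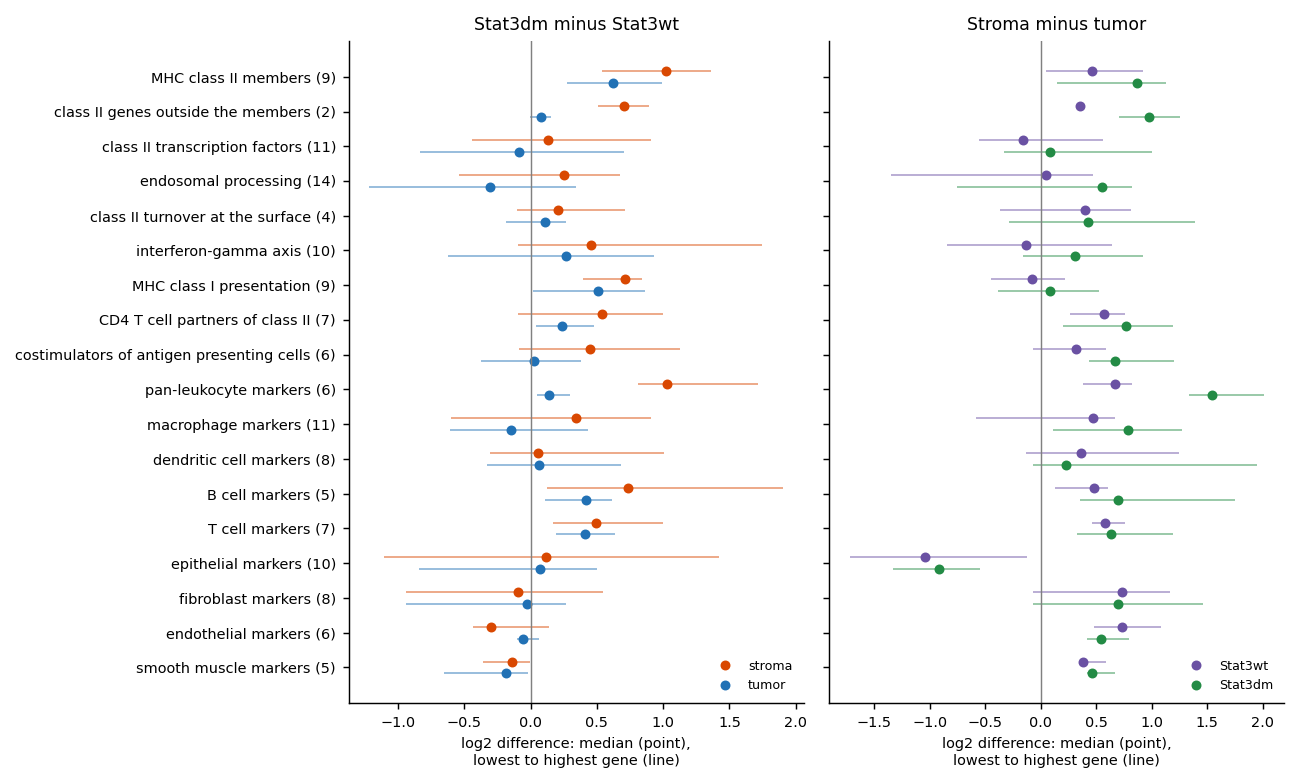
Median log2 difference (point) and lowest to highest gene (line) of the members, the other genes of the pathway and the cell type markers, with the number of tested genes in brackets; left, Stat3dm minus Stat3wt in stroma and tumor, and right, stroma minus tumor in Stat3wt and Stat3dm. The members lie at 1.02 in stroma and 0.62 in tumor for genotype, pan-leukocyte markers at 1.03 and 0.14, and class I genes at 0.71 and 0.51.

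The members varied together across samples, with H2-DMb1 the least so. Over the 36 pairs of members and the 12 arrays, Pearson correlations ran from 0.22 (H2-DMb1 with H2-DMb2) through a median of 0.718 to 0.975 (H2-Aa with H2-Ab1). After subtracting the group means they ran from -0.316 to 0.981 with a median of 0.459. These arrays share group differences, and genes on an array share its quality and cell content, so the values are descriptions. Likeness to the mean of H2-Aa, H2-Ab1 and H2-Eb1, without Cd74, was 0.921 for H2-DMa and 0.917 for Ctss over the 12 arrays, and 0.804 and 0.903 within groups. For Ciita it was 0.727 over the arrays and -0.004 within groups, a value pooled over groups that did not run alike. In Stat3dm stroma samples 2 and 3 lay above sample 1 for Ciita as for H2-Aa, H2-Ab1 and H2-Eb1. In Stat3wt tumor Ciita fell from sample 1 to sample 3 (6.12, 5.82 and 5.66), where H2-Aa rose (7.11, 7.68 and 8.18). For H2-DMb1 it was 0.504 and -0.249.

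Ranked by likeness to the same mean over the 12 arrays, the 8 nearest of the genes tested outside the members were Gm1966 (0.967), Ms4a6c (0.944), H2-M2 (0.929), Otud3 (0.928), Lat (0.919), Naaa (0.917), Dock2 (0.917) and Ptprc (0.912). Lat encodes an adaptor of T cell receptor signalling, Dock2 an exchange factor of leukocyte migration, and Ptprc the pan-leukocyte antigen CD45. Gm1966 read 5.12, 4.63 and 5.39 in Stat3wt tumor, 4.75, 5.97 and 6.52 in Stat3wt stroma, 5.88, 5.92 and 6.09 in Stat3dm tumor and 6.83, 7.16 and 6.96 in Stat3dm stroma. Like H2-Ab1 it did not overlap between genotypes in either tissue. Otud3 followed the same order over a small range, from 5.25 to 5.65. Ptprc read 6.81, 7.47 and 7.01 in Stat3dm stroma and 5.27, 5.95 and 6.44 in Stat3wt stroma, while in tumor its genotypes overlapped.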

How the data were processed

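Each of the 12 samples was hybridised to 1 single-colour Affymetrix array after amplification of 50 ng of RNA, per the labels' protocols. The authors deposited log2 signals of 41345 probe sets. Per the submitters' processing notes, Affymetrix Expression Console 1.3.1 and RMA (robust multi-array average, which corrects background, normalizes and summarises probes) were used. The values were taken as deposited. RMA compresses differences of dim genes. Their genome build was not given in the sources used here. The platform annotation supplied names: 23521 had 1 symbol, 1814 several and 16010 were unlisted. Of 23328 matched by gene ID to RefSeq, 0 changed symbol. Of 22180 genes, the 25% with the lowest means (below 3.65) were left out.

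A mean for each group was fitted in limma 3.58.1 (R 4.3.3), 7 contrasts were tested with moderated statistics (eBayes, two-sided), and p-values were adjusted by Benjamini-Hochberg over 16635 genes at 0.05. The fit was tested on simulated data. The number of arrays limits the precision. The labels say that a sample comes from 1 mouse, but not that different samples come from different mice, so p-values measure the spread between samples. No arrays were identical among 66 pairs. Members and lists were chosen with earlier results of these data known. Named genes were the members, defining markers, a short set of regulators and receptors (Rfx5, Irf1, Nlrc5, Cd4, B2m, Ifng, Stat3, Lag3), the smallest p-values of each pathway list, and the 8 genes most like the surface chains. Gbp2, H2-D1, Lck and Clec9a had no probe set of their own symbol alone. H2-Ea, Il10, Cd28, Clec10a and Tek were too dim. The main fit used no block, and blocks by sample number were run as alternatives, with no label giving a source. For equal numbers, all 3 correlations of deviations exceeded 0.1 for tumor with stroma in Stat3dm. The same held for Stat3wt with Stat3dm tumor (0.317, 0.150 and 0.692). Unequal numbers ranged from -0.293 to 0.125 in the former and from -0.663 to 0.593 in the latter. The ranges overlap, so these values do not establish a pairing. Alternatives covered scaling, filter, probe set, prior, weights, blocks and single arrays.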

Additional observations from a re-analysis of the deposited data

Results flagged for a closer look

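The 113 genes examined were the members and the named genes tested, which hold only the smallest p-values of each pathway list. Of these, 1 had genotype differences in opposite directions in stroma and tumor, with no overlap in either tissue. Cd86, a costimulator of antigen presenting cells, read 4.55, 4.74 and 4.46 in Stat3dm stroma and 3.82, 3.51 and 3.83 in Stat3wt stroma, a log2 difference of 0.863. In tumor it read 3.48, 3.28 and 3.51 in Stat3dm and 3.75, 3.88 and 3.74 in Stat3wt, a difference of -0.37. The difference between the tissues was 1.23 ± 0.26 SE and did not pass in limma (adjusted p = 0.995), and several values lie near the level of 3.65 below which genes were left out.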

How the results depend on the processing

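The 9 members gave 63 differences over 7 contrasts, and 1458 values under alternatives; 1349 kept their direction and side of the threshold, 80 passed it, 29 changed sign and 0 lost it. The genotype differences in stroma, and those averaged over tissues, kept their sign under every alternative run. No member passed as analysed, so the counts here are of members that passed in limma. Array weights gave 4 of 9 for genotype in stroma, 5 in tumor, 9 averaged, 4 for stroma minus tumor in Stat3wt (median 0.84), 5 in Stat3dm and 7 averaged. Their estimation stopped before its tolerance, with 1 array, Stat3wt tumor 1, at a weight of 7.80, and a count from them is not firm. Quantile normalization gave 2 for averaged genotype and 3 for averaged tissue, and the spread of each array as a covariate gave 5 and 4, and 1 for tissue in Stat3dm.

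With sample number as a replicate block, 5 members passed for averaged genotype (H2-Ab1 at adjusted p = 0.00538), 5 for averaged tissue and 1 for tissue in Stat3wt (H2-Eb1, 0.92, adjusted p = 0.0464), and 0 for genotype in stroma or in tumor. With genotype and number as a random block (consensus correlation 0.234) the counts were 0 for averaged genotype and 3 for averaged tissue, and as a fixed block 6 for averaged tissue and 1 for tissue in Stat3dm. Same-numbered samples of Stat3wt tumor and stroma correlated at 0.439, -0.004 and 0.513 in their deviations, and those of Stat3wt and Stat3dm stroma at 0.152, -0.040 and 0.113, so the numbers do not pair all groups.

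Leaving out single arrays gave 0 to 2 members for averaged genotype (1 without Stat3wt stroma 3, 2 without Stat3dm stroma 1), 0 to 1 for tissue in Stat3dm and 0 to 3 for averaged tissue (3 without sample 1 of either stroma group). The member median ran from 0.71 to 1.20 for genotype in stroma, from 0.030 to 0.60 for the interaction and from 0.079 to 0.62 for tissue in Stat3wt. Ctss in tumor by genotype ran from -0.036 to 0.54. Interactions ran from -0.42 to 0.29 for H2-Eb1, -0.12 to 1.01 for H2-Aa, -0.21 to 0.60 for H2-Ab1, -0.051 to 0.22 for H2-DMb1 and -0.27 to 0.15 for Ciita. In Stat3wt, tissue differences ran from -0.26 to 0.38 for H2-DMb2, -0.067 to 0.20 for H2-DMb1, -0.032 to 1.10 for H2-Aa and -0.14 to 0.82 for Ctss. Centring on medians gave 0.035 for the H2-Eb1 interaction and -0.049 for H2-DMb1 by tissue in Stat3wt. The spread covariate gave -0.078 for the H2-Ab1 interaction. Array weights gave interactions of -0.13 for H2-Aa, -0.20 for H2-Ab1, 0.40 for Ciita and -0.21 for H2-DMb2, and -0.16 for H2-DMb1 by tissue in Stat3wt. Without the 2 arrays of widest spread, an alternative chosen after seeing the data, the Ciita interaction was 0.11. The cause was not tested. Values of H2-DMb2 and Ifng lie near the dimmest genes, where signal limits what can be read.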
